A study of Mus musculus with 12 samples.

Results

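The comparison described here sets the left ventricle of mice labelled Prkca T497A against that of mice labelled wild type (WT), both 1 week after transverse aortic constriction (TAC), across every gene of a table of raw read counts. The members were chosen by library name: the 3 T497A libraries and the 3 WT libraries taken after TAC, 6 of the 12 libraries of the series. The other 6 are sham-operated controls, 3 of each genotype. Of 55401 genes in the table, 17699 passed a filter on low counts and were tested.

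Protein kinase C alpha, the product of Prkca, is a serine/threonine kinase that is switched on by calcium and diacylglycerol, downstream of receptors coupled to the G protein Gq (those for angiotensin, endothelin and alpha-1 adrenergic agonists). Before it can respond it must be primed by phosphorylation, first in the activation loop and then near its carboxyl end, and the threonine changed here belongs to the activation loop. In T497A it is replaced by alanine, which carries no phosphate. In the heart the kinase is known for restraining contractility through phosphatase inhibitor 1 and phospholamban. TAC narrows the aorta and makes the left ventricle work against a higher pressure. The heart muscle cells enlarge, genes of the fetal heart are switched on again, fatty acid burning falls and fibroblasts lay down collagen.

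Every mouse, WT or T497A, was operated on at 10 weeks of age, with a 27-gauge needle used for the procedure, and tissue was taken 1 week later, at 11 weeks. The labels name no promoter, Cre line or other allele, so the mutation is described only as a T497A genotype, and they give neither the founder line nor the background strain. They call the tissue left ventricle and the cell type cardiomyocyte. Markers of fibroblasts, macrophages and endothelium were all present, so the counts are treated as those of ventricular tissue. In such bulk tissue, fewer cells of a type and less RNA per cell cannot be told apart. The libraries of a group are numbered but not said to come from separate animals, so each p-value reflects the spread among libraries, which may be technical.

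Total counts were 62882520 to 70502531 per library in the WT-labelled TAC group and 65803463 to 72594085 in the T497A-labelled one. Libraries of a TAC group resembled each other more than those of the other TAC group: Pearson correlations of log2 CPM (read counts scaled by library size) across genes were 0.980 to 0.990 within groups and 0.955 to 0.976 between the TAC groups. Mitochondrial transcripts took 12.6% ± 2.63 (SD, n = 3) of the counts in the WT-labelled TAC libraries and 19.6% ± 0.301 (SD, n = 3) in the T497A-labelled ones, with 19.1 to 20.99% in the WT sham libraries and 16.0 to 17.3% in the T497A sham libraries. WT TAC library 2 stood apart from its group, with the lowest mitochondrial share, 9.67%. The share of counts in the 50 most abundant genes was 28.9% in the WT-labelled and 36.5% in the T497A-labelled libraries, and this moves with the scaling of libraries described under the overall counts.

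The targeted gene does not check the labels, because a point mutation need not change its RNA. Prkca (chr11:107933387-108343928, minus strand) measured 49.2, 50.7 and 51.01 CPM in the WT-labelled TAC libraries and 50.3, 44.7 and 43.7 CPM in the T497A-labelled ones. These ranges overlapped, and the difference did not pass the test (log2 fold change -0.12 ± 0.07, adjusted p = 0.21). Without the scaling factors of the trimmed mean of M-values (TMM) method, it did, with a log2 fold change of -0.37 ± 0.076 and an adjusted p of 0.0012.

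Another set of transcripts went against the labels. Between the sham groups, 104 autosomal transcripts differed by at least 4-fold and passed the test, 83 higher and 21 lower in the T497A sham libraries. After TAC, 95 of them differed with the opposite sign and 9 with the same sign. Of the 72 that passed the test after TAC, 71 had the opposite sign and 1 the same. On a scale where 0 is the WT sham mean and 1 the T497A sham mean of each transcript, the median of these transcripts was 0.741, 0.562 and 0.772 in the 3 libraries labelled WT TAC, and 0.000811, 0.0745 and 0.00765 in the 3 labelled T497A TAC. The libraries labelled WT TAC thus lay nearer to the T497A sham libraries, and those labelled T497A TAC nearer to the WT sham libraries. Of the 104, 33 (31.7%) lay on chromosome 11, which carries Prkca, against 8.25% of the autosomal genes tested, and no other chromosome held more than 9. Their distances from Prkca ran from 3.38 to 91.3 Mb, with 10 within 10 Mb and 15 within 20 Mb.

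**Figure D1:**
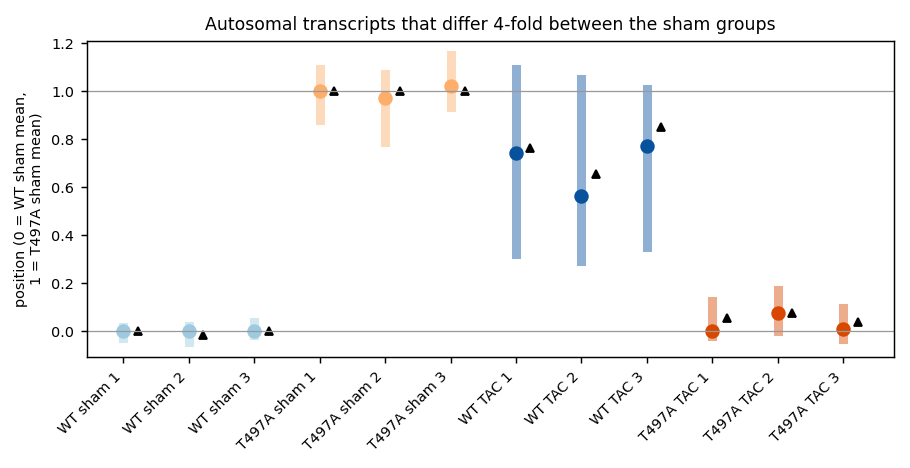
Position of each library between the WT sham mean (0) and the T497A sham mean (1), over the 104 autosomal transcripts that differ at least 4-fold between the sham groups. Dots are medians, bars the quartiles over transcripts and triangles the medians of the 33 on chromosome 11. The libraries labelled WT TAC have medians of 0.562 to 0.772, and those labelled T497A TAC of 0.000811 to 0.0745.

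The sham groups also differed in sex-linked transcripts: Xist, which silences the X chromosome in female cells, measured 160 to 215 CPM in the T497A sham libraries and under 1 CPM in the other 9, while the Y-linked Ddx3y measured at most 0.396 CPM in the T497A sham libraries. All 6 TAC libraries had Ddx3y at 73.6 to 95.8 CPM, so the comparison after TAC is between libraries with the transcripts of males. Whether the genotype labels of any library depart from the mice was not tested. Each direction given from here on is that of the labels, as "T497A-labelled" against "WT-labelled" TAC libraries, and would be opposite if those TAC labels were exchanged.

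After TAC a large share of the genes tested differed between the labelled genotypes, most of them by less than 2-fold. At an adjusted p under 0.05, 6321 of 17699 genes (35.7%) were called, 3156 higher (17.8%) and 3165 lower (17.9%) in the T497A-labelled libraries. These shares of 17.8 and 17.9% are the background for every count of called list members below. The called genes that were higher differed by a median of 0.47 on the log2 scale, and those that were lower by 0.66. At least 2-fold differences were called for 491 genes higher (2.77%) and 942 lower (5.32%). The libraries of the groups did not overlap for 8757 genes (49.5%), and 6168 of these were also called. Over all genes tested the median log2 fold change was -0.02, with quartiles of -0.37 and 0.26. This balance rests on the scaling: TMM factors were 1.13 to 1.21 in the WT-labelled and 0.963 to 0.988 in the T497A-labelled libraries. With library totals alone, the median moved to -0.27, and 1458 genes were called higher and 6874 lower. That put 17.5% of the calls on the higher side, against 49.9% with TMM factors. All changes below are therefore relative to the bulk of the genes, and differences under about 0.25 on the log2 scale can change sign with this choice.

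**Figure D2:**
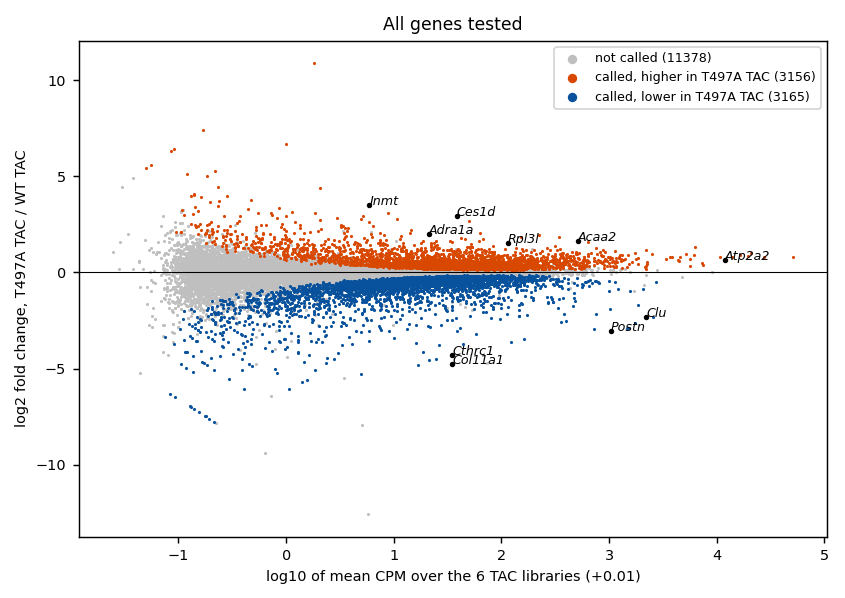
Each point is a gene tested: the x axis is the log10 of its mean CPM over the 6 TAC libraries, the y axis its log2 fold change, T497A-labelled over WT-labelled. The 3156 genes called higher and the 3165 called lower lie on both sides of 0, with more large differences on the lower side.

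Genes of the stress response were lower in the T497A-labelled libraries. The list of stress and fetal genes, which pressure overload is known to switch on, had 16 of 25 tested members called lower and none higher (background for lower calls, 17.9%), with a median log2 fold change of -0.78, against -0.02 for all genes. The atrial natriuretic peptide gene Nppa (chr4:148000722-148002079) measured 2579, 2793 and 2415 CPM in the WT-labelled and 382, 478 and 206 CPM in the T497A-labelled libraries. All 3 T497A-labelled libraries lay far below the WT-labelled ones (log2 fold change -2.87 ± 0.38, adjusted p = 0.00045). The sham means were 88.4 ± 6.9 CPM for WT and 156 ± 74.1 CPM for T497A (SD, n = 3 each).

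Other classic members of this programme were lower in every T497A-labelled library but did not pass the test. The brain natriuretic peptide gene Nppb measured 504, 599 and 471 CPM against 305, 396 and 425 CPM (log2 fold change -0.48 ± 0.23, adjusted p = 0.14). Myh7, the slow and fetal myosin heavy chain, measured 2305, 2133 and 2334 CPM in the WT-labelled and 1518, 1171 and 724 CPM in the T497A-labelled libraries (log2 fold change -0.99 ± 0.47, adjusted p = 0.14). Skeletal actin, Acta1, measured 2619, 2456 and 2679.9 CPM against 1514, 1696 and 1733 CPM (log2 fold change -0.65 ± 0.32, adjusted p = 0.15), and Ankrd1, a stretch-sensitive nuclear protein, 5151, 5125 and 5102 CPM against 4295, 4519 and 4436 CPM (log2 fold change -0.21 ± 0.10, adjusted p = 0.11). Each passed under 2 to 4 of 18 alternative analyses, limma-voom among them. For none of these 4 did the groups overlap, but the same held, in the lower direction, for 25.3% of all genes tested. All 4 were still above their sham means in the T497A-labelled libraries. For Myh7 the sham means were 219.5 ± 9.85 CPM in WT and 413 ± 302 CPM in T497A. Members with smaller errors were called. Tgfb2, a transforming growth factor, measured 52.7, 65.7 and 49.4 CPM against 24.3, 23.6 and 17.8 CPM (log2 fold change -1.35 ± 0.12, adjusted p = 4.2e-06), Fhl1, a LIM protein of the sarcomere, 370.0, 506 and 334 CPM against 135, 146 and 122 CPM (log2 fold change -1.58 ± 0.14, adjusted p = 7.6e-06), and Gdf15, a stress cytokine, 6.87, 8.73 and 7.97 CPM against 2.37, 3.08 and 2.69 CPM (log2 fold change -1.53 ± 0.16, adjusted p = 9.3e-06). Xirp2, an actin-binding protein of the intercalated disc, measured 2558, 2872 and 2468 CPM in the WT-labelled and 1492, 1529 and 1383 CPM in the T497A-labelled libraries (log2 -0.84 ± 0.09).

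The promoters of the 5 classic stress genes are shown because these genes are the usual readout of pressure overload. The 250 bases before each RefSeq start (GRCm38.p6) are printed 5′ to 3′ in the direction of the gene, with matches to M-CAT (CATTCC on either strand, bound by TEAD factors) and to the CArG box (the site of serum response factor) in capitals.
Nppa promoter, chr4:148000472-148000721, plus strand: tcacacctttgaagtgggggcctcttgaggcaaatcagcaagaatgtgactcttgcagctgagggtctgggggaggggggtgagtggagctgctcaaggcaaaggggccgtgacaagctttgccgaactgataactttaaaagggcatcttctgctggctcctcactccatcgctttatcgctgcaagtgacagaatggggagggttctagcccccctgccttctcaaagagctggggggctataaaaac
Nppb promoter, chr4:147985650-147985899, plus strand: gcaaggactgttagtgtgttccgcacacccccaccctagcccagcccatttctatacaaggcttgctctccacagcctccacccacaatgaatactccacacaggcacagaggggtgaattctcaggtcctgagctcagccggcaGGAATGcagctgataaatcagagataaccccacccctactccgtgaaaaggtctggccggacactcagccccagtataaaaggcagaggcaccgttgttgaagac
Myh7 promoter, chr14:54994627-54994876, minus strand: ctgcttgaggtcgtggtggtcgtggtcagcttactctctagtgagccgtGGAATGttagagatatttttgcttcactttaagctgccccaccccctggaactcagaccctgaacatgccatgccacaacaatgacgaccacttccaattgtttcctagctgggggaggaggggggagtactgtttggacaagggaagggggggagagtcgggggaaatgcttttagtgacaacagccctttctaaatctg
Acta1 promoter, chr8:123894776-123895025, minus strand: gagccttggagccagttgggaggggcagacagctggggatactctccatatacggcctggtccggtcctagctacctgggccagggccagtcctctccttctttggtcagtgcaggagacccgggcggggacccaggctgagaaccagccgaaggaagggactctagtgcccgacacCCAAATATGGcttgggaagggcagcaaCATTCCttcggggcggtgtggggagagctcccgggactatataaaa
Ankrd1 promoter, chr19:36119845-36120094, minus strand: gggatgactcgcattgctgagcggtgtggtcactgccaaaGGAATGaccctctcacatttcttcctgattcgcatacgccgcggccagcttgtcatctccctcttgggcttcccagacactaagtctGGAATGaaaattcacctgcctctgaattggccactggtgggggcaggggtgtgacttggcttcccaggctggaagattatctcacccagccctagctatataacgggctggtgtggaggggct
These matches are letters found in a window, and say nothing about binding. Nppa held neither motif here, Nppb and Myh7 held 1 M-CAT each, Acta1 held 1 M-CAT and 1 CArG box, and Ankrd1 held 2 M-CAT matches. Among all 32851 promoters of that length, 12.6% held an M-CAT and 1.47% a CArG box. Of the 23 stress genes with a promoter in the table, 6 held M-CAT and 2 a CArG box, and of the 22 sarcomere genes 8 and 5.

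**Figure D3:**
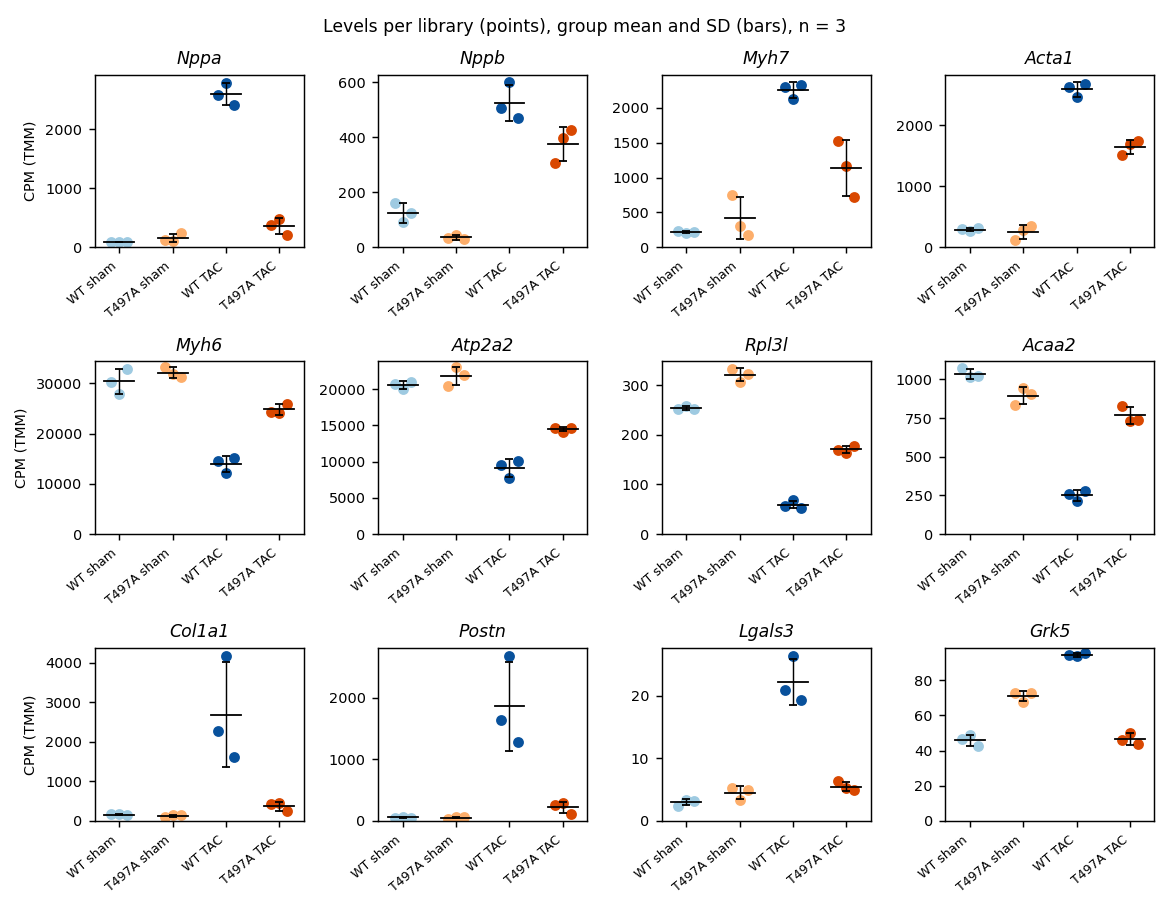
CPM of 12 genes in each library of the 4 groups (points), with the group mean and SD as bars, on axes that start at 0. Nppa, Postn and Col1a1 are highest in the libraries labelled WT TAC, while Acaa2, Atp2a2 and Myh6 lie nearer the sham levels in those labelled T497A TAC.

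Sarcomere and muscle genes were higher in the T497A-labelled libraries. Of 28 tested adult sarcomere genes, 21 were called higher (background 17.8%) and 1 lower, with a median log2 fold change of 0.45. Without TMM factors 12 were higher and 2 lower. The adult myosin heavy chain Myh6 measured 14527, 12214 and 15122 CPM in the WT-labelled and 24362, 24100.1 and 25984 CPM in the T497A-labelled libraries, with no overlap (log2 fold change 0.83 ± 0.10, adjusted p = 2.9e-05). Its sham means were 30378 ± 2439 CPM in WT and 32166 ± 1064 CPM in T497A. Titin (Ttn), the molecular spring of the sarcomere, measured 2772, 2628 and 2973 CPM against 5036, 4702 and 5013 CPM (log2 fold change 0.82 ± 0.08, adjusted p = 5.2e-06). Lmod2, which lengthens thin filaments (log2 0.70 ± 0.06), and Myom1, of the M band (log2 0.72 ± 0.07), rose by similar amounts. The regulatory light chain Myl2 (log2 0.98 ± 0.10), the essential light chain Myl3 (log2 0.82 ± 0.11) and cardiac troponin I, Tnni3 (log2 0.98 ± 0.11), were higher as well.

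Calcium handling was split. Of 35 tested calcium cycling genes, 12 were higher and 10 lower (background 17.8 and 17.9%), with a median of -0.01, close to that of all genes. Without TMM factors 9 were higher and 17 lower. The genes named in this paragraph were all called higher, and none of the 10 lower is named. The lowest log2 fold change on the list was -1.31. The calcium pump of the sarcoplasmic reticulum, Atp2a2, measured 9548, 7735 and 10088 CPM in the WT-labelled and 14666, 14142 and 14624 CPM in the T497A-labelled libraries (log2 fold change 0.67 ± 0.10, adjusted p = 0.00015). Phospholamban (Pln), its inhibitor, measured 830.2, 618 and 909 CPM against 1407, 1294 and 1278 CPM (log2 fold change 0.76 ± 0.11, adjusted p = 0.00014), and the ryanodine receptor gene Ryr2, the release channel, 1578, 1391 and 1675 CPM against 2145, 2119.7 and 2138 CPM (log2 fold change 0.46 ± 0.07, adjusted p = 0.00025). In all 3 the groups were apart. Hrc, a calcium store protein, measured 571, 434 and 616 CPM against 1117, 1079.6 and 1145 CPM (log2 fold change 1.04 ± 0.10, adjusted p = 5.1e-06), while Cacna1c, the pore of the L-type calcium channel (log2 0.54 ± 0.06), its partner Cacna2d1 (log2 0.47 ± 0.06) and Trdn, triadin (log2 0.45 ± 0.06), rose less.

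Potassium and sodium channel genes leaned higher, with 15 of 31 called higher and 4 lower, against a background of 17.8 and 17.9%. Their median was 0.36, and without TMM factors 10 were higher and 5 lower. Kcnj3 (chr2:55435970-55598145), a subunit of the acetylcholine-activated potassium channel, measured 34.9, 34.3 and 36.2 CPM in the WT-labelled and 85.5, 78.2 and 76.9 CPM in the T497A-labelled libraries (log2 fold change 1.19 ± 0.06, adjusted p = 6.7e-08). Its partner Kcnj5 measured 61.3, 60.1 and 63.9 CPM against 108, 94.7 and 98.6 CPM (log2 fold change 0.70 ± 0.07, adjusted p = 4.3e-06), and both groups kept a narrow spread. Gja1, connexin 43 of the gap junctions, overlapped between the groups and was not called (log2 0.06 ± 0.10).

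Genes that burn fat were higher in the T497A-labelled libraries. Of 46 tested genes of fatty acid uptake and oxidation, 41 were called higher and none lower in the T497A-labelled libraries, with a median log2 fold change of 0.89 (36 higher and 2 lower, with a median of 0.65, without TMM factors). The thiolase Acaa2, which cleaves fatty acids in the last step of beta oxidation, measured 260.3, 212 and 281 CPM in the WT-labelled and 829.7, 732 and 739 CPM in the T497A-labelled libraries (log2 fold change 1.61 ± 0.09, adjusted p = 1.2e-07). All 3 T497A-labelled libraries lay above the WT-labelled ones and below the sham means of 1038 ± 31.4 CPM in WT and 896 ± 54.2 CPM in T497A. Eci1, an isomerase for unsaturated fatty acids, measured 106, 96.8 and 110.3 CPM against 245, 221 and 226 CPM (log2 fold change 1.15 ± 0.06, adjusted p = 1e-07). Hadha, of the mitochondrial trifunctional protein, measured 739, 657 and 765 CPM against 1641, 1489 and 1511 CPM (log2 fold change 1.10 ± 0.07, adjusted p = 2.4e-07). The carnitine carrier Slc25a20 (log2 0.99 ± 0.06), muscle carnitine palmitoyltransferase Cpt1b (log2 0.85 ± 0.12) and lipoprotein lipase, Lpl (log2 0.61 ± 0.10), rose with them. Ppargc1a, the coactivator that drives mitochondrial genes, measured 71.8, 66.04 and 75.6 CPM against 103, 96.4 and 96.8 CPM (log2 fold change 0.47 ± 0.14, adjusted p = 0.02). It lost its call without TMM factors, with no filter on low counts, and without WT TAC library 1, WT TAC library 2 or T497A TAC library 1, with adjusted p up to 0.207 over all alternatives.

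The mitochondrial machinery followed the same direction. Of 62 nuclear genes of the respiratory chain, 59 were higher and none lower, with a median of 0.61 (55 and 1 without TMM factors). Succinate dehydrogenase subunit Sdha measured 959.7, 789 and 1003 CPM in the WT-labelled and 1765, 1652 and 1679 CPM in the T497A-labelled libraries (log2 fold change 0.89 ± 0.08, adjusted p = 3.2e-06), and Cox7a1, the muscle form of a cytochrome oxidase subunit, 259.8, 205 and 268 CPM against 477, 474 and 505 CPM (log2 fold change 0.99 ± 0.09, adjusted p = 3.8e-06). The ATP synthase beta subunit Atp5b rose by less (log2 0.64 ± 0.08). Of 45 genes of the citrate cycle and of branched-chain amino acid breakdown, 43 were higher and 1 lower, with a median of 0.70 (38 and 2 without TMM factors). Ivd, which acts in leucine breakdown, measured 209, 170.0 and 229 CPM against 472, 440.3 and 466 CPM (log2 fold change 1.18 ± 0.09, adjusted p = 6.2e-07), and Bckdha and Bckdhb, subunits of the branched-chain ketoacid dehydrogenase, rose by 1.20 ± 0.09 and 1.11 ± 0.07 on the log2 scale.

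The 13 genes of the mitochondrial genome that were tested had a median of 1.03, and 10 were called higher and none lower (10 and 0 without TMM factors). Under a stricter filter on low counts only 7 were tested, all called higher, with a median of 0.809. Without WT TAC library 2, 8 of the 13 were called higher, with a median of 0.723. mt-Co1 measured 39371, 27966 and 44229.7 CPM in the WT-labelled and 64729, 62669.8 and 66247 CPM in the T497A-labelled libraries (log2 fold change 0.80 ± 0.14, adjusted p = 0.00047), and mt-Nd5 14565, 9536 and 16443 CPM against 28514, 26795 and 27702 CPM (log2 fold change 1.03 ± 0.15, adjusted p = 0.00012). WT TAC library 2 was the lowest of the 6 for both, the same library that had the lowest mitochondrial share. Cardiomyocyte markers moved in the same direction: 10 of 12 were called higher and none lower, and their summed level was 44303 to 51729 CPM in the WT-labelled and 70977 to 76714 CPM in the T497A-labelled libraries, against 75749 to 83512 CPM in WT sham. These markers include Myh6, Myl2, Myl3, Tnni3, Pln and Ryr2, described above with the sarcomere and calcium genes, so the list is not separate from those results. The part of the cardiomyocyte markers in the metabolic and sarcomere results was not tested.

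Glucose genes were split. Of 35 tested, 14 were higher and 10 lower, with a median of 0.05 that became -0.20 without TMM factors (8 higher and 17 lower). Pygm, muscle glycogen phosphorylase, rose from 636, 550.5 and 666 CPM to 1175, 1074 and 1120.1 CPM (log2 fold change 0.86 ± 0.07, adjusted p = 1.6e-06) and Pfkm, muscle phosphofructokinase, from 746, 644 and 766 CPM to 1291, 1197 and 1247 CPM (log2 fold change 0.79 ± 0.07, adjusted p = 2.8e-06). The platelet form Pfkp went the other way, with 126, 132 and 120.5 CPM in the WT-labelled and 57.4, 69.2 and 67.4 CPM in the T497A-labelled libraries (log2 fold change -0.96 ± 0.08, adjusted p = 1.8e-06). The following pairs of a muscle form and a widely expressed form were chosen after their values were seen. Muscle creatine kinase Ckm was higher (log2 0.73 ± 0.11) and brain creatine kinase Ckb lower (log2 -0.68 ± 0.06). The insulin-regulated glucose transporter Slc2a4 was higher (log2 0.85 ± 0.09) and Slc2a1 lower (log2 -0.40 ± 0.09). Hexokinase Hk2 was higher (log2 0.43 ± 0.07) and Hk1 lower (log2 -0.41 ± 0.05), and the nucleotide carrier Slc25a4 was higher (log2 0.83 ± 0.10) and Slc25a5 lower (log2 -0.30 ± 0.08, not called without T497A TAC library 1). Pdk4, which blocks pyruvate entry to the citrate cycle, was also named after seeing its values: 146, 158 and 145 CPM against 807, 487 and 314 CPM, with a wide spread among the T497A-labelled libraries (log2 fold change 1.84 ± 0.47, adjusted p = 0.016; up to 0.0545 without any 1 of the WT TAC libraries or T497A TAC library 1). Among 30 genes of creatine kinase and energy transfer, 17 were higher and 4 lower, with Nampt, an enzyme of NAD synthesis (log2 0.93 ± 0.08), among the former. Nmrk2, the muscle nicotinamide riboside kinase, chosen after its values were seen, measured 37.98, 47.9 and 32.9 CPM against 8.76, 10.4 and 7.34 CPM (log2 fold change -2.16 ± 0.23, adjusted p = 4.6e-05).

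Ribosomal proteins showed one such pair. Of 55 tested cytosolic ribosomal protein genes, 2 were higher and 9 lower, both below the background of 17.8 and 17.9%. Their median was -0.04 (1 higher and 50 lower, with a median of -0.29, without TMM factors). The lower count was 3 to 5 without WT TAC library 1 or 2 or T497A TAC library 2 or 3. Rpl3l (chr17:24727820-24736143), the form of the large-subunit protein uL3 that is restricted to striated muscle, measured 56.5, 68.6 and 53.5 CPM in the WT-labelled and 170.4, 163 and 178 CPM in the T497A-labelled libraries (log2 fold change 1.52 ± 0.08, adjusted p = 6.7e-08). Its ubiquitous counterpart Rpl3 measured 133, 126 and 133 CPM against 86.4, 86.8 and 76.96 CPM (log2 fold change -0.65 ± 0.06, adjusted p = 4.7e-06). The libraries of the groups did not overlap for either gene. The sham means of Rpl3l were 255 ± 4.04 CPM in WT and 321 ± 12.96 CPM in T497A.

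Extracellular matrix genes were lower in the T497A-labelled libraries, many of them by more than 2-fold. Of 49 tested collagens and matrix proteins, 47 were called lower and none higher in the T497A-labelled libraries, with a median log2 fold change of -1.72 (49 lower without TMM factors). Col1a1, a chain of type I collagen, measured 2290.0, 4169.5 and 1626 CPM in the WT-labelled and 417, 449 and 244 CPM in the T497A-labelled libraries (log2 fold change -2.86 ± 0.38, adjusted p = 0.00045), and the sham means were 158 ± 12.9 CPM in WT and 129.7 ± 27.9 CPM in T497A. Col3a1, of type III collagen, measured 3781, 5889 and 3049 CPM against 909, 964 and 645 CPM (log2 fold change -2.34 ± 0.32, adjusted p = 0.00045). Periostin (Postn), secreted by activated fibroblasts, measured 1637, 2676 and 1283 CPM against 259, 289.9 and 117 CPM (log2 fold change -3.07 ± 0.43, adjusted p = 0.00067). WT TAC library 2 was the highest of the 6 and T497A TAC library 3 the lowest for these 3 genes, yet the groups did not overlap. Basement membrane collagens differed less but with smaller errors: Col4a1 measured 2050.2, 2233 and 1954 CPM against 917, 1132 and 1116 CPM (log2 fold change -0.98 ± 0.09, adjusted p = 4.7e-06), and Col4a2 fell with it (log2 -0.96 ± 0.08). Ccn2, connective tissue growth factor, measured 376, 603 and 306 CPM against 168, 174 and 151 CPM (log2 fold change -1.38 ± 0.31, adjusted p = 0.0073).

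Enzymes that build and remodel the matrix were lower too, 26 of 36 against 2 higher, with a median of -1.04. Pcolce, which speeds collagen maturation, measured 169.8, 213 and 159 CPM against 63.9, 70.9 and 64.3 CPM (log2 fold change -1.44 ± 0.12, adjusted p = 3.5e-06), and the protease Mmp2 261, 302 and 243 CPM against 119, 116 and 96.99 CPM (log2 fold change -1.28 ± 0.12, adjusted p = 1.2e-05). Bmp1, the collagen propeptidase (log2 -1.26 ± 0.12), and the collagen chaperone Serpinh1 (log2 -1.05 ± 0.18) were lower. Lox, the enzyme that crosslinks collagen, chosen after its values were seen, measured 184, 371 and 118 CPM against 22.4, 24.2 and 8.91 CPM (log2 fold change -3.60 ± 0.52, adjusted p = 0.00081). In the list of activated fibroblast genes, 20 of 25 were lower and 1 higher, with a median of -1.90. Fstl1 measured 1112, 1583 and 968 CPM in the WT-labelled and 276, 322 and 229.9 CPM in the T497A-labelled libraries (log2 fold change -2.14 ± 0.21, adjusted p = 3.6e-05), and the growth factor Mdk, midkine, 13.8, 21.6 and 10.9 CPM against 3.45, 3.98 and 2.25 CPM (log2 fold change -2.26 ± 0.28, adjusted p = 6.3e-05). The 1 higher member was Lrrc15, a membrane protein of myofibroblasts, with 12.5, 11.1 and 10.8 CPM in the WT-labelled and 35.4, 32.7 and 30.1 CPM in the T497A-labelled libraries (log2 fold change 1.51 ± 0.15, adjusted p = 1.3e-05). Of 31 genes of TGF-beta and BMP signalling, 16 were lower (background 17.9%) and 4 higher, or 25 and 1 without TMM factors, with the receptor Tgfbr2 (log2 -0.66 ± 0.09) and the latent TGF-beta binding protein Ltbp4 (log2 -0.43 ± 0.07) among the lower.

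Markers of fibroblasts moved with these lists. Of 19 tested, 11 were lower and 4 higher, with a median of -0.43, and their summed level was 7695 to 12977 CPM in the WT-labelled and 3563 to 4496 CPM in the T497A-labelled libraries, against 3363 to 3792 CPM in WT sham. The sum includes the collagen genes Col1a1 and Col3a1, described above, which account for most of its difference between the groups. Without them the sums of the groups overlapped. Gsn, gelsolin, which is shared with muscle, was higher (log2 1.07 ± 0.14), as was Dpep1 (log2 0.65 ± 0.07), while Medag was lower (log2 -0.89 ± 0.12). Their part in the matrix results was not tested.

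The 12 largest falls among called genes with at least 1 CPM, and without overlap, included several matrix genes. Cemip, which degrades hyaluronan, measured 7.75, 17.7 and 3.69 CPM in the WT-labelled and 0.304, 0.431 and 0.0286 CPM in the T497A-labelled libraries (log2 fold change -5.26 ± 0.90, adjusted p = 0.0015). Col11a1, a fibril collagen, measured 48.7, 130.2 and 22.98 CPM against 3.64, 3.2 and 0.544 CPM (log2 fold change -4.78 ± 0.81, adjusted p = 0.0019), and Cthrc1, secreted by activated fibroblasts, 53.5, 115 and 31.1 CPM against 4.37, 5.08 and 0.715 CPM (log2 fold change -4.30 ± 0.72, adjusted p = 0.0018). These 3 genes varied widely within the WT-labelled group, WT TAC library 2 being the highest each time. Sprr1a, a stress protein, measured 33.96, 65.6 and 22.4 CPM against 1.88, 2.98 and 0.286 CPM (log2 fold change -4.57 ± 0.75, adjusted p = 0.0016). C1qtnf3, a secreted C1q relative (log2 -4.80 ± 0.82), Col8a2, a short-chain collagen (log2 -3.76 ± 0.64), Adamts16, a matrix protease (log2 -4.64 ± 1.17), Bpifb4 (log2 -4.19 ± 0.72) and Ak5, an adenylate kinase (log2 -3.89 ± 0.61), complete the list together with Ifi202b (log2 -4.72 ± 1.35), Gpr179 (log2 -4.44 ± 0.59) and Eno1b (log2 -3.77 ± 0.39). These last 3 are among the transcripts that separated the sham groups, and Ifi202b and Eno1b have near-identical relatives that make their counts uncertain. Ifi202b lost its call with no filter on low counts and without WT TAC library 2, T497A TAC library 1 or T497A TAC library 3 (adjusted p up to 0.0849 over all alternatives), and Adamts16 with no filter and without T497A TAC library 2 (up to 0.0667). Leaving out WT TAC library 2 moved several of these log2 fold changes toward 0, to -4.49 for Cemip, -3.87 for Col11a1, -3.65 for Cthrc1, -3.78 for C1qtnf3, -3.08 for Col8a2, -3.24 for Ak5 and -3.41 for Adamts16. Leaving out T497A TAC library 2 moved others away from 0, to -5.86 for Cemip, -5.95 for Bpifb4, -5.65 for Gpr179, -6.20 for Ifi202b, -5.22 for Sprr1a, -4.49 for Ak5 and -4.36 for Eno1b. Adamts16, at 0 counts in T497A TAC library 3, stood at -6.46 without T497A TAC library 1 and at -4.04 without T497A TAC library 3.

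The 12 largest rises included several genes of metabolism, most of them at low level. Ces1d, a carboxylesterase that breaks down lipid, measured 9.69, 6.13 and 10.6 CPM in the WT-labelled and 79.7, 61.1 and 62.8 CPM in the T497A-labelled libraries (log2 fold change 2.95 ± 0.17, adjusted p = 1.2e-06). Ucp3, a mitochondrial carrier of the uncoupling protein family, measured 15.5, 8.25 and 16.8 CPM against 123, 78.6 and 57.9 CPM (log2 fold change 2.68 ± 0.40, adjusted p = 0.00092). Both were lower in WT-labelled libraries than in sham, whose means for Ucp3 were 91.6 ± 15.04 CPM in WT and 86.6 ± 29.8 CPM in T497A. Ppl, periplakin, had the smallest p of the 12, with 1.26, 0.997 and 1.32 CPM against 11.3, 8.42 and 7.51 CPM (log2 fold change 2.92 ± 0.17, adjusted p = 1.1e-07). Inmt, an N-methyltransferase (0.935, 0.682 and 1.26 CPM against 16.9, 8.6 and 7.22 CPM), Retnla, a resistin-like protein (log2 3.17 ± 0.29), Lgals4, a galectin (log2 3.09 ± 0.63), Acsm5, an acyl-CoA synthetase (log2 2.82 ± 0.28), Rab6b, a small GTPase (log2 2.79 ± 0.58), Sbk3, a kinase (log2 2.79 ± 0.31), Pfkfb1, which makes a regulator of glycolysis (log2 2.63 ± 0.24), and Tac1, the precursor of substance P (log2 2.60 ± 0.50), were also among them. Without WT TAC library 2 the value of Tac1 was 3.53.

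Genes of immune cells were partly lower. Of 27 macrophage markers, 17 were lower and 1 higher, with a median of -0.76. The summed level was 758 to 1295 CPM in the WT-labelled and 571 to 651 CPM in the T497A-labelled libraries, against 416 to 572 CPM in WT sham. Lgals3, galectin 3, measured 21.01, 26.4 and 19.3 CPM against 6.31, 5.2 and 4.94 CPM (log2 fold change -2.02 ± 0.18, adjusted p = 2.7e-06), and Trem2, a lipid receptor of macrophages, 8.69, 12.9 and 7.61 CPM against 2.73, 3.85 and 2.15 CPM (log2 fold change -1.74 ± 0.23, adjusted p = 5.7e-05). Ccr2, which marks recruited monocytes, was chosen after its values were seen and was lower too (log2 -1.40 ± 0.24). The 1 higher member was Timd4, a marker of resident macrophages, at 0.882, 0.656 and 1.03 CPM in the WT-labelled and 1.52, 2.12 and 2.56 CPM in the T497A-labelled libraries (log2 fold change 1.27 ± 0.34, adjusted p = 0.01). Lyve1, Folr2, Cd163 and Mrc1, also on the list, were not called higher. Whether resident and recruited macrophages differed in share was not tested. Cd74, of antigen presentation, overlapped between the groups and was not called (log2 -0.58 ± 0.46). None of 20 lymphocyte markers was called by edgeR or DESeq2, 2 had an unadjusted p under 0.05, limma-voom called 3 higher and 3 lower, and 3 were lower without TMM factors.

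Signalling genes of inflammation were split, with 17 of 50 lower and 4 higher, against a background of 17.9 and 17.8%. Their median was -0.38, and 20 were lower and 2 higher without TMM factors. The lower count was 10 to 11 without WT TAC library 2, T497A TAC library 2 or T497A TAC library 3. Osmr, the receptor of oncostatin M, measured 34.9, 46.5 and 33.5 CPM against 20.6, 23.5 and 23.2 CPM (log2 fold change -0.77 ± 0.12, adjusted p = 0.00024), while the eosinophil chemokine Ccl11 was higher, at 3.55, 1.94 and 1.37 CPM from 0.374, 0.367 and 0.479 CPM (log2 fold change 2.48 ± 0.40, adjusted p = 0.0003). Interferon response genes had 3 of 41 lower and none higher, below the background share of 17.9% (6 lower without TMM factors, 0 to 1 without WT TAC library 2 or T497A TAC library 1 or 2), with Dhx58, a helicase (log2 -0.72 ± 0.21), among the 3. It was not called without WT TAC library 2 or T497A TAC library 1 (adjusted p up to 0.0964). Of 46 cell cycle genes, 25 were lower and 1 higher, with a median of -0.66, but this count was 13 without WT TAC library 2 and 13 without T497A TAC library 1. The replication helicase subunit Mcm6 measured 22.2, 25.97 and 21.3 CPM in the WT-labelled and 15.3, 15.8 and 16.04 CPM in the T497A-labelled libraries (log2 fold change -0.56 ± 0.09, adjusted p = 0.00031), and Tyms, which makes thymidylate, 6.83, 9.88 and 5.43 CPM against 2.85, 3.85 and 3.89 CPM (log2 fold change -1.06 ± 0.22, adjusted p = 0.002). The proliferation marker Mki67, chosen after its values were seen, overlapped at 39.9, 63.8 and 43.6 CPM against 26.4, 32.02 and 41.2 CPM and was not called (log2 fold change -0.56 ± 0.33, adjusted p = 0.22).

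In the pathway that the mutated kinase belongs to, protein kinase C and Gq signalling, 8 of 41 tested genes were higher and 9 lower, near the background of 17.8 and 17.9% (4 and 21 without TMM factors). The lower count was 4 without WT TAC library 2 and 4 without T497A TAC library 2. Marcks, a known substrate of protein kinase C, measured 132, 169 and 128 CPM in the WT-labelled and 79.7, 78.9 and 61.5 CPM in the T497A-labelled libraries (log2 fold change -0.96 ± 0.11, adjusted p = 2.8e-05). Prkce, the epsilon isoform, measured 36.8, 33.1 and 35.6 CPM against 52.8, 55.005 and 57.9 CPM (log2 fold change 0.65 ± 0.09, adjusted p = 8.9e-05), and the phosphatase gene Phlpp1 and the kinase gene Mtor, which act on the priming sites of such kinases, rose by 0.37 ± 0.07 and 0.36 ± 0.06 on the log2 scale, calls that were lost without TMM factors (adjusted p 0.194 and 0.135). Other isoforms, chosen after their values were seen, went both ways: Prkcq was higher (log2 0.82 ± 0.18), and Prkcd (log2 -0.72 ± 0.17) was lower. The phosphatase inhibitor Ppp1r1a, inhibitor 1, was higher at a low level, with 0.454, 0.604 and 0.731 CPM against 1.05, 1.8 and 1.46 CPM (log2 fold change 1.26 ± 0.34, adjusted p = 0.0089).

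Receptor genes upstream of this kinase changed in both directions. Of 38 tested genes of adrenergic, angiotensin and endothelin signalling, 14 were higher and 13 lower (7 and 16 without TMM factors; 8 higher without WT TAC library 2). The alpha-1A adrenergic receptor gene Adra1a measured 8.81, 8.29 and 8.05 CPM in the WT-labelled and 39.5, 29.99 and 31.5 CPM in the T497A-labelled libraries (log2 fold change 2.01 ± 0.20, adjusted p = 2.6e-05), and the angiotensin receptor gene Agtr1a 25.6, 22.6 and 24.5 CPM against 57.2, 48.2 and 51.4 CPM (log2 fold change 1.11 ± 0.13, adjusted p = 3.6e-05). Both were higher in every T497A-labelled library. Grk5 (chr19:60889749-61095968), the receptor kinase that quenches such signals, measured 94.2, 93.5 and 95.4 CPM against 45.9, 50.02 and 43.6 CPM (log2 fold change -1.02 ± 0.07, adjusted p = 2.2e-07). The level in the T497A-labelled TAC libraries was close to that of WT sham (45.8 ± 3.1 CPM), and the T497A sham mean was 70.9 ± 2.84 CPM. Ace, angiotensin-converting enzyme, fell from 222, 225 and 216 CPM to 109.7, 124 and 120.1 CPM (log2 fold change -0.91 ± 0.10, adjusted p = 2.6e-05).

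Calcineurin, NFAT and hypertrophic regulators had 15 of 38 higher and 6 lower (6 and 16 without TMM factors, with the median moving from 0.18 to -0.07). Camk2a, a calcium-dependent kinase, measured 34.9, 29.2 and 35.8 CPM against 73.3, 67.9 and 69.2 CPM (log2 fold change 1.08 ± 0.09, adjusted p = 1.2e-06), and Hdac4, a class IIa histone deacetylase, rose by 0.71 ± 0.09 on the log2 scale. Rcan1, a calcineurin inhibitor that calcineurin itself switches on, measured 172, 223 and 157 CPM in the WT-labelled and 97.2, 94.7 and 90.4 CPM in the T497A-labelled libraries (log2 fold change -0.97 ± 0.11, adjusted p = 2.1e-05). Of 40 cytoskeletal and costamere genes 26 were lower and 5 higher (1 higher without TMM factors, 2 without WT TAC library 1 and 3 without T497A TAC library 1), with a median of -0.43, Tubb3, a beta tubulin (log2 -1.64 ± 0.18), and the non-muscle myosin Myh10 (log2 -0.86 ± 0.09) among them. Desmin, Des, the intermediate filament of muscle, was lower (log2 -0.48 ± 0.11).

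Stress pathways of the cell moved by list. Of 29 endoplasmic reticulum genes, 14 were lower and 1 higher (23 and 1 without TMM factors), with a median of -0.33. P4hb measured 357, 426 and 332 CPM against 239, 243 and 238 CPM (log2 fold change -0.63 ± 0.08, adjusted p = 2.8e-05); it and Pdia3 (log2 -0.76 ± 0.11) fold disulfide-bonded proteins, while the sensor target Hspa5 overlapped and was not called (log2 -0.06 ± 0.08). Of 29 ATF4 and serine one-carbon genes, 11 were lower and 7 higher (16 and 4 without TMM factors), with Nupr1 among the lower (log2 -1.37 ± 0.15). Antioxidant genes were split, 14 higher and 9 lower of 33 (9 and 18 without TMM factors): Gstm1, a glutathione transferase, was higher (log2 1.07 ± 0.08), as was Sod2, the mitochondrial superoxide dismutase (log2 0.73 ± 0.09), and Gpx1 lower (log2 -0.59 ± 0.06). Heat shock genes had 8 of 28 higher (background 17.8%) and none lower (4 and 4 without TMM factors, and 14 without T497A TAC library 1). The mitochondrial chaperones Hspd1 (log2 0.58 ± 0.07) and Hspa9 (log2 0.59 ± 0.07) were among the higher. Immediate early genes had 8 of 29 higher, against a background of 17.8%, and none lower (2 and 4 without TMM factors). The higher count fell to 4 with no filter on low counts, and to 4 without any 1 of WT TAC library 1 or 3 and T497A TAC library 2 or 3. Jun measured 107, 111 and 102 CPM against 144, 145 and 163 CPM (log2 fold change 0.50 ± 0.08, adjusted p = 0.0003).

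Of 34 genes of lysosome and autophagy, 19 were lower and 6 higher (21 and 2 without TMM factors), with the cathepsin Ctsz lower (log2 -1.13 ± 0.11) and Pink1, which marks damaged mitochondria, higher (log2 0.87 ± 0.08). Angiogenic genes had 7 higher and 9 lower of 36, near the background of 17.8 and 17.9% (5 and 16 without TMM factors), with Fgfr1 lower (log2 -0.79 ± 0.07) and Vegfb higher (log2 0.60 ± 0.07). The circadian list had 6 of 19 higher, against a background of 17.8%, and none lower, with a median of 0.45. Hlf measured 23.9, 21.3 and 25.9 CPM against 54.5, 53.1 and 55.7 CPM (log2 fold change 1.20 ± 0.09, adjusted p = 6.5e-07). The clock time of tissue collection is not in the labels. Nnt, the mitochondrial transhydrogenase that is deleted in some mouse strains, measured 1.48, 0.892 and 1.2 CPM against 2.98, 2.65 and 2.16 CPM (log2 fold change 1.12 ± 0.20, adjusted p = 0.00062).

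Markers of other cell types were mixed. Of 20 endothelial markers, 3 were lower and 2 higher, a share below the background (1 higher and 13 lower without TMM factors, 5 lower without WT TAC library 2, 4 higher without T497A TAC library 1), and their sum was 2478 to 2903 CPM in the WT-labelled and 2679 to 3066 CPM in the T497A-labelled libraries. The 17 mural cell markers had 4 higher and 5 lower (3 and 7 without TMM factors), against a background of 17.8 and 17.9%. Atrial and conduction markers had 5 of 15 lower and 2 higher (background 17.9 and 17.8%), with sums of 5799 to 7548 CPM against 1037 to 1604 CPM. Nppa and Clu made up most of these sums: the 13 other members summed to 234.2 to 311.9 CPM in the WT-labelled and 212.3 to 246.7 CPM in the T497A-labelled libraries, which overlapped. Clu, clusterin, measured 3438, 4521 and 3072 CPM against 731, 890.3 and 618 CPM (log2 fold change -2.30 ± 0.16, adjusted p = 1.5e-06). Epicardial and mesothelial markers summed to at most 41.8 CPM in any TAC library, with 4 of 12 higher and 2 lower (background 17.8 and 17.9%). The higher count was 1 to 2 without WT TAC library 2 or 3 or T497A TAC library 1 or 3. The red cell list had 1 of 9 higher, below the background of 17.8%, and 3 lower without WT TAC library 2.

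**Figure D4:**
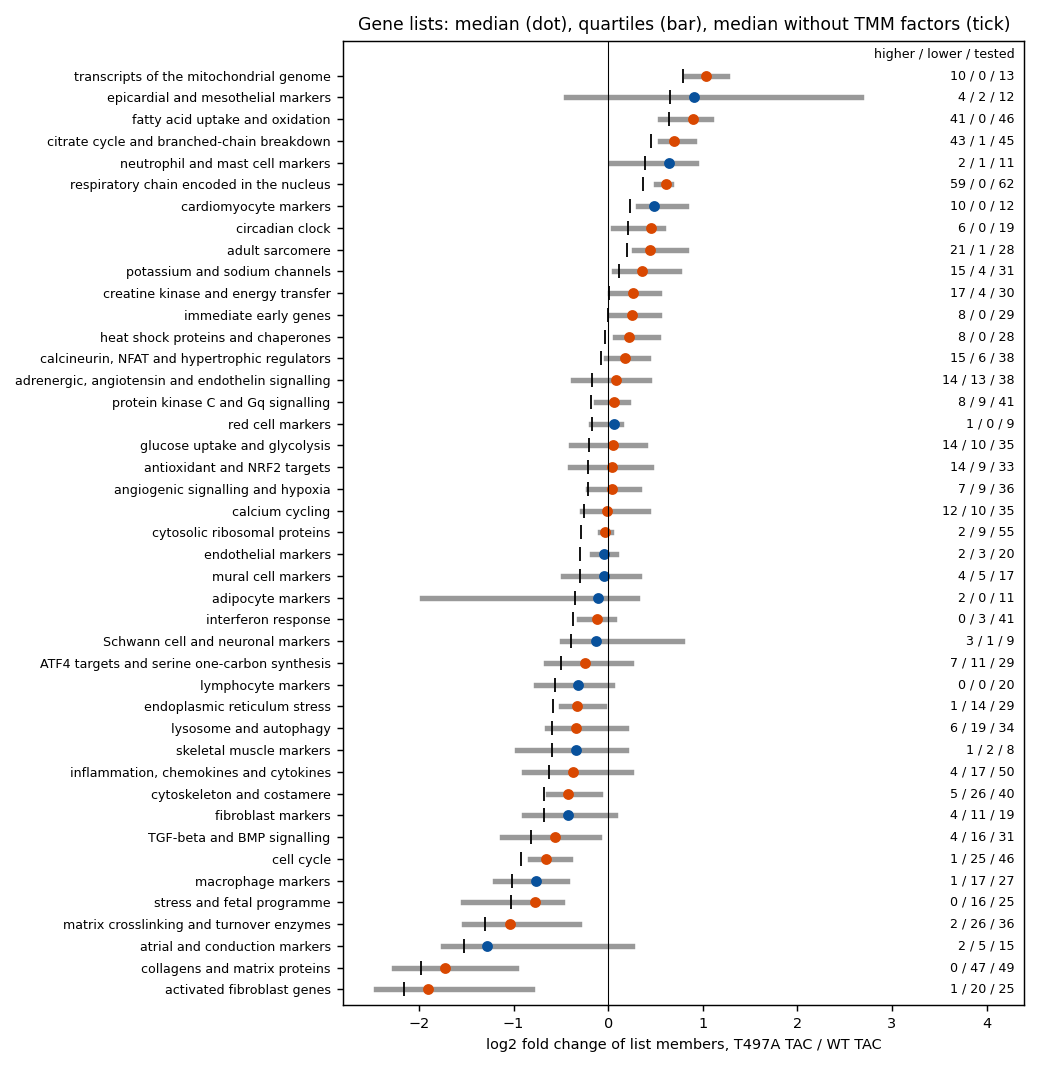
Median log2 fold change (dot, orange for pathways and blue for cell type markers), quartiles of the members (bar) and median without TMM factors (tick) of each list, with the counts of members higher, lower and tested. Matrix and activated fibroblast lists lie lowest, with medians of -1.72 and -1.90, and the transcripts of the mitochondrial genome highest, at 1.03.

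**Figure D5:**
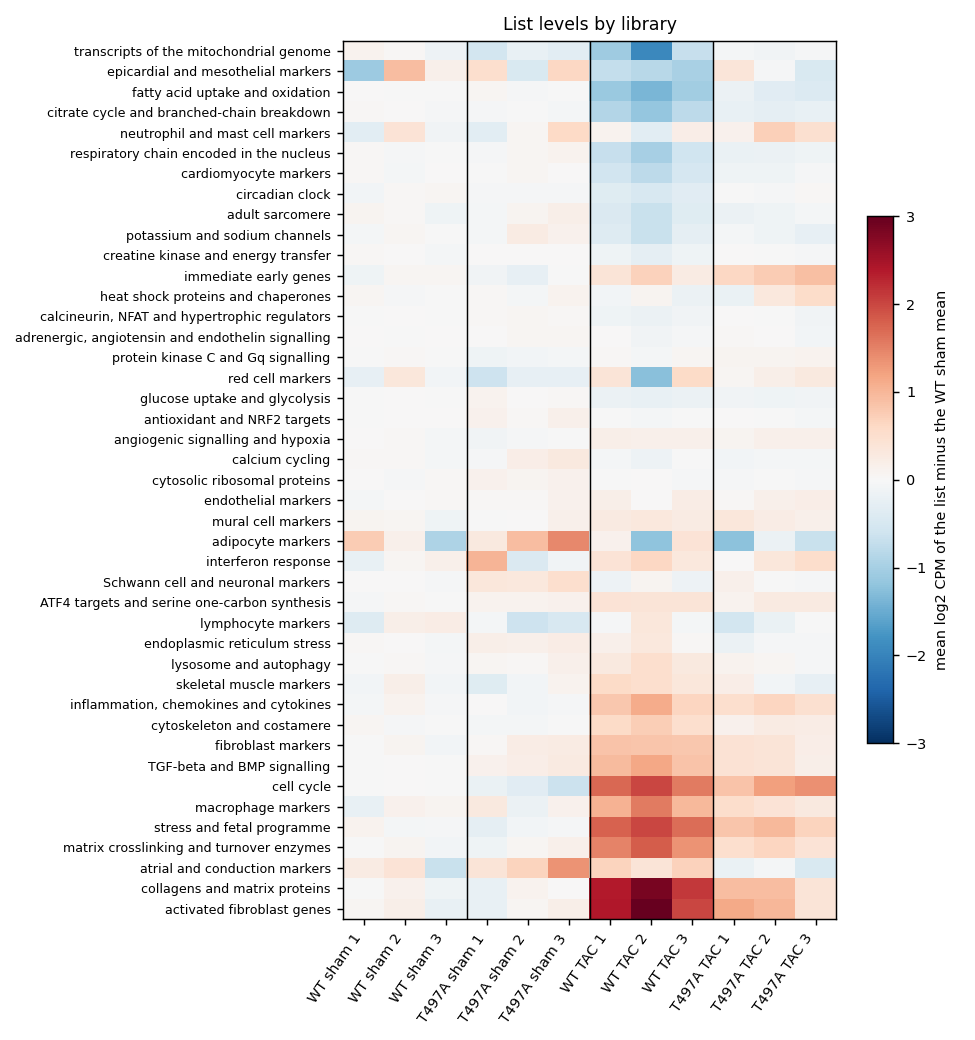
Mean log2 CPM of each list per library, minus the WT sham mean, in the 4 groups. The libraries labelled T497A TAC lie between the sham libraries and those labelled WT TAC for the matrix, stress and fatty acid lists.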

How the data were processed

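The deposited table holds raw read counts per gene in 12 columns, 1 for each library of mouse left ventricle, and all were used. The labels give RNeasy purification, KAPA mRNA HyperPrep libraries and single-end sequencing on a NextSeq2000. Trim Galore 0.6.4, STAR 2.7.3a, featureCounts (Subread 1.6.3) and limma 3.50.3 were used per the submitters' processing notes, which name the builds mm10 and GRCh38 with no role. Strandedness, annotation release and treatment of multimapping reads were not given in the sources used here. Genes that overlap another gene, or that have a near-identical copy, are therefore uncertain. GENCODE M21 (GRCm38) supplied gene names and positions: 54349 of 55401 IDs were found by exact version, 55141 after dropping the version, and 260 were not found. Promoters were read from RefSeq on GRCm38.p6.

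Groups were taken from the labels. Columns were matched to samples by genotype, surgery and number, since the names of 2 T497A sham columns lack the first letter of the genotype. Counts were filtered with filterByExpr and scaled with TMM factors. Genes were tested with the robust quasi-likelihood F test of edgeR 4.0.16 (R 4.3.3), fitted to 4 group means over 12 libraries. The contrast was T497A TAC minus WT TAC, with p-values adjusted by the Benjamini-Hochberg method over all 17699 genes, and calls at an adjusted p under 0.05. Every adjusted p in the text comes from this edgeR fit unless another tool is named. A log2 fold change is followed by its standard error. Exact permutation of 3 against 3 libraries has a smallest p of 0.1, which is why the model was used. CPM values include the TMM factors; their log2 was taken with a prior count of 2. Between libraries of the same TAC group the spread exceeded counting error, which was not examined for the sham groups. Depth was 58932759 to 72594085 counts per library.

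The members and gene lists were chosen with earlier results of these data known. A list is described by the counts and the median of its tested members beside those of all genes, with no test of the list. Named are Prkca, 17 fixed genes, the 12 called genes that rose most and the 12 that fell most (mean over the TAC libraries of 1 CPM or more, groups not overlapping), the called members of a list with the smallest p (up to 4) and its most abundant member. Y-linked genes, Xist, unnamed genes and pseudogenes were left out of the largest changes. A few genes that this rule names are not reported here. Other genes are said to have been chosen after their values were seen.

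The alternatives were DESeq2 size factors, library totals without TMM factors, the DESeq2 1.42.0 test, limma-voom (limma 3.58.1) with quality weights, a stricter filter and none, the non-robust fit, a block for the replicate number, genes of the mitochondrion, haemoglobin and rRNA removed, autosomal protein-coding genes only, the 6 TAC libraries alone, no T497A sham libraries, and each TAC library left out in turn. On counts simulated from these data, with 200 of 17320 genes changed, the edgeR test recovered 52.2% of 1.5-fold, 80.6% of 2-fold and 98.5% of 4-fold changes, and 7.23% of its calls were false. Whether these shares hold where 35.7% of the genes tested are called, as in the comparison after TAC, was not tested.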

Additional observations from a re-analysis of the deposited data

Results flagged for a closer look

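The effect of the T497A label after TAC differed from its effect after sham surgery for 5218 genes (29.5% of those tested) by the interaction term of the edgeR fit, 2700 with a more positive and 2518 with a more negative effect after TAC. The sham side of this difference compares WT libraries that have Y-linked transcripts with T497A libraries that have Xist and lack them, so genotype and sex cannot be told apart there. The transcripts that went against the labels touch it as well.

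Among the fixed genes, the differences of the log2 effects (after TAC minus after sham) that passed were as follows. Nppa differed by -3.688, with an effect of -2.87 after TAC and 0.82 after sham. Postn differed by -3.037, Col1a1 by -2.58, Ccn2 by -2.416, Grk5 by -1.651 and Col3a1 by -1.624. Nppb differed by 1.314: its effect was -0.48 after TAC and -1.80 after sham. Nnt differed by 1.153, Cpt1b by 0.9968, Myh6 by 0.748, Pln by 0.7181, Ankrd1 by 0.6463, Atp2a2 by 0.5831 and Ryr2 by 0.3113. Ankrd1, like Nppb, was lower in the T497A-labelled libraries after both surgeries, and by more after sham (-0.86 against -0.21). For Grk5 the sign turned, from 0.63 after sham to -1.02 after TAC.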

How the results depend on the processing

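The count of called genes lay between 5266 and 8816 over the 18 alternatives, against 6321, and no gene called in both the edgeR fit and an alternative changed direction. Leaving out 1 TAC library gave 5266 to 6106 calls (2691 to 3081 higher, 2444 to 3025 lower), with 412 to 546 genes at least 2-fold higher and 703 to 1051 at least 2-fold lower, and Prkca between -0.1846 and -0.07911.

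Library totals without TMM factors gave 1458 genes higher and 6874 lower, 285 and 1674 of them at least 2-fold, and Prkca at -0.3723, now called. The stricter filter, which tested 13079 genes, left 327 and 542 at least 2-fold. Without TMM factors the medians of glucose genes (-0.202), antioxidant genes (-0.21), protein kinase C and Gq signalling (-0.184), adrenergic, angiotensin and endothelin signalling (-0.172), calcineurin and NFAT genes (-0.0718) and angiogenic genes (-0.215), and Gja1 (-0.1857), became negative, as the shift of all genes by about that much implies.

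Leaving out 1 library also turned some signs: glucose genes (-0.00309 to 0.0846), antioxidant genes (-0.0154 to 0.0718), angiogenic genes (-0.0415 to 0.109), Schwann cell markers (-0.157 to 0.104), Gja1 (-0.04072 to 0.1675) and Hspa5 (-0.1373 to 0.02523). Neutrophil markers turned to -0.234 under the stricter filter, and Schwann cell markers to 0.0379 with limma-voom and 0.183 under the stricter filter, where fewer members were tested. For turns not set by the scaling or the filter, the cause was not tested.

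The labels give the groups the same replicate numbers, but deviations of same-numbered TAC libraries correlated at -0.0149, -0.0145 and -0.000544, so the numbers are not taken to pair them. With the replicate number as a block, 5994 genes were called, 5886 of them shared with the fit without it.

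Depth was similar in all libraries, and limits mainly genes near the 1 CPM used for naming, such as Tac1 or Retnla.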
